A study of Mus musculus with 16 samples.

Results

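The genes described here make up the LIF, gp130 and STAT3 signalling route: the ligands Lif and Cntf, the receptor chains Lifr, Il6st (which encodes gp130), Osmr and Cntfr, the kinases Jak1 and Jak2, the transcription factor Stat3 and its inhibitor Socs3. They were taken as a fixed list of 10 genes, and a gene was read only from probe sets annotated to that gene's symbol and no other. On these terms 9 of the 10 genes had a probe set, 26 probe sets in all out of 45037 on the array. Cntf was covered only by a probe set shared by 3 symbols and is given no value. The array as a whole had such a probe set for 18193 genes.

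Retinal RNA of BALB/c mice was measured on 16 Affymetrix 3′ expression arrays, 1 for each sample. The mice carried intact Nxnl1 (Nxnl1+/+, wild type) or lacked it (Nxnl1-/-, knockout); the product of Nxnl1, known as rod-derived cone viability factor, resembles thioredoxins and supports cones. All animals were adapted to darkness for 16 h, were placed singly for 1 h under fluorescent lamps giving 50, 2500 or 5000 lux, and then spent 24 h in the dark before the neural retina was taken off the pigment epithelium. The mice were 11 to 16 weeks old, with as many males as females, and had been raised in 12 h of light at 50 lux and 12 h of darkness, so that 50 lux is the light they knew. At 50, 2500 and 5000 lux there were 2, 3 and 3 wild-type and 3, 3 and 2 knockout samples. The labels call these biological replicates but do not say whether an array held 1 animal or a pool, which part of Nxnl1 was removed, or whether every cell lacked it. The p-values therefore measure the spread between these samples, part of which may be technical. RNA came from whole retina, in which fewer cells of a type and less RNA per cell cannot be told apart.

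LIF and its relatives act through receptors that share the gp130 chain: LIF joins LIFR to gp130, CNTF adds the CNTFR chain to that pair, and oncostatin M joins OSMR to gp130. The receptors activate JAK kinases, which phosphorylate STAT3; STAT3 then enters the nucleus and switches on target genes, among them Socs3, whose product blocks gp130 and the kinases. In the retina, Müller glia are known to make LIF when photoreceptors are injured, and the route is known for its part in photoreceptor survival and in glial reactivity.

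Promoter sequence was read for all 10 genes from RefSeq (build GRCm38.p6), in 16 windows that run from 250 bases before to 50 bases after a start site. The STAT motif TTCNNNGAA, which reads the same on both strands, occurred in 8.30% of all 32851 such windows and, among these genes, in the Socs3 window alone, 154 bases before the start site. The cyclic AMP element TGACGTCA, also the same on both strands and not overlapping with the former, occurred in 1.79% of all windows and, among these genes, in a Jak1 window alone. The Socs3 stretch is shown because Socs3 had the steepest light response of the 10 genes, and capitals mark the STAT match; it lies at chr11:117969501-117969530 on the minus strand. The Il6st stretch, the 250 bases before its start site, is shown for contrast, since that gene rose as well and its window held neither motif; it lies at chr13:112463820-112464069 on the plus strand. A match is a run of letters and not a measured binding site.
Socs3: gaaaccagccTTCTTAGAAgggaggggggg
Il6st: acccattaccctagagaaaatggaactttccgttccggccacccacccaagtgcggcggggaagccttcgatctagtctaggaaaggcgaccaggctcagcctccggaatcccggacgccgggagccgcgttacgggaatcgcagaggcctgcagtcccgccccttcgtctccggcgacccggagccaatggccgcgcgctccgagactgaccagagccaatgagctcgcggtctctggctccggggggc

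Values are log2 of the deposited intensity, whose lowest value of 4.62 (log2 2.21) filled the bottom of every array. A probe set counted as measured on an array above log2 4 (intensity 16), and it was tested if this held on at least 2 arrays; 21 of the 26 probe sets, from 8 genes, were. Median intensity ran from 14.4 to 15.1 on the 5 arrays at 50 lux and from 15.3 to 15.8 on the 11 arrays at the higher doses. Nxnl1 itself lay between 7.53 and 7.61 on the wild-type arrays at 50 lux and was not above log2 4 on any knockout array, a gap of at least 11.9-fold at 50 lux (limma, adjusted p = 4.4e-06). Lens genes set some libraries apart: the log2 of the summed intensity of 6 lens markers was 15.44 on wild-type array 2 at 5000 lux, 12.46 on knockout array 2 at 2500 lux, 11.72 on knockout array 2 at 5000 lux and 10.48 to 12.42 on the 3 knockout arrays at 50 lux. On the other 10 arrays it was 4.92 to 7.34, with 5.05 and 6.98 for wild type at 50 lux. The summed rod signal of 4 markers was 16.19 to 16.35 at 50 lux and 15.73 to 16.06 at the higher doses. Neutrophil markers were not measured on any array (4 of 4).

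Bright light left the retina with more RNA for the receptor chains gp130 and OSMR, for Stat3 and for Socs3, in both genotypes and at both doses. Against 50 lux, Socs3 was 23.4 to 54.1 times higher, Osmr 4.44 to 11.8 times, Stat3 3.31 to 5.31 times and Il6st 1.66 to 2.17 times. No change was called for the leading probe sets of Lifr, Jak1 and Jak2, Cntfr fell in 1 of the 4 comparisons, and neither Lif probe set rose above the level of measurement on any array. No member gene differed by genotype past the threshold at any dose on its leading probe set; 1 further Stat3 probe set was higher in knockout retinas at 50 lux.

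The ligand Lif was not measurable 24 h after light. Its probe set 1421207_at read 2.21 on both wild-type arrays at 50 lux, 2.51, 2.55 and 3.29 at 2500 lux, and 2.51 on all 3 arrays at 5000 lux. The knockout arrays gave 2.41, 2.41 and 2.21 at 50 lux, 2.74, 3.57 and 3.93 at 2500 lux, and 2.51 and 2.54 at 5000 lux. The 3 knockout arrays at 2500 lux thus included the highest readings, but every one stayed below log2 4, so no test was made and no fold is given. The second probe set, 1450160_at, sat at the lowest value of 2.21 on all 16 arrays.

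Osmr, the receptor chain through which oncostatin M reaches gp130, rose in all 4 light comparisons. Its leading probe set, 1418674_at, read 5.94 and 5.36 on the wild-type arrays at 50 lux, 8.75, 9.12 and 9.77 at 2500 lux, and 9.19, 8.66 and 9.28 at 5000 lux. On the knockout arrays it was 6.66, 6.51 and 6.68 at 50 lux, 9.80, 9.41 and 9.66 at 2500 lux, and 8.74 and 8.79 at 5000 lux. Every array at a higher dose lay above every array at 50 lux of either genotype. The wild-type change was 3.56 on the log2 scale at 2500 lux (SE 0.27, 11.8-fold, limma adjusted p = 2.4e-06) and 3.40 at 5000 lux (10.5-fold, adjusted p = 3.0e-06). The knockout change was 3.00 at 2500 lux (SE 0.24, 8.02-fold, adjusted p = 2.5e-06) and 2.15 at 5000 lux (4.44-fold, adjusted p = 0.00032). The dimmer probe set 1418675_at was not above log2 4 on any array at 50 lux, so it passed the filter through the bright arrays alone. It was at least 1.52-fold and at least 1.44-fold higher in wild-type retinas and at least 2.20-fold and at least 1.05-fold higher in knockout retinas, in dose order. With values below log2 4 raised to that level its call was lost in 3 of these, with adjusted p of 0.309, 0.328 and 0.931 in wild type at 2500 and 5000 lux and in knockout at 5000 lux. One more probe set, 1459217_at, stayed at the lowest value throughout.

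Il6st, which encodes the shared chain gp130, rose by a smaller step. The leading probe set 1437303_at read 8.19 on both wild-type arrays at 50 lux, 9.0, 9.36 and 9.57 at 2500 lux, and 9.17, 9.23 and 9.25 at 5000 lux. Knockout retinas gave 8.22, 8.52 and 8.76 at 50 lux, 9.48, 9.61 and 9.73 at 2500 lux, and 8.93 and 9.54 at 5000 lux. Within each genotype the arrays at 50 lux lay below all arrays at the higher doses. The log2 change was 1.12 in wild type at 2500 lux (SE 0.20, 2.17-fold, limma adjusted p = 0.0028) and 1.02 at 5000 lux (2.03-fold, adjusted p = 0.0050). In knockout retinas it was 1.11 at 2500 lux (SE 0.18, 2.15-fold, adjusted p = 0.00077) and 0.73 at 5000 lux (1.66-fold, adjusted p = 0.034). At 5000 lux the knockout call was lost in 6 of 26 alternatives, among them without knockout array 2 at 5000 lux, one of the arrays of high lens signal (log2 change 0.42, adjusted p = 0.355), without knockout array 1 at 50 lux (0.59, adjusted p = 0.11) and with no filter (adjusted p = 0.0928). The wild-type call had an adjusted p of 0.0511 without wild-type array 1 at 50 lux, with a log2 change of 1.02 as before.

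Of the other 3 Il6st probe sets, 1452843_at and 1460295_s_at rose in all 4 comparisons as well. The former changed by 1.30 and 1.49 in wild-type and by 1.20 and 0.98 in knockout retinas on the log2 scale, and the latter by 1.22 and 1.54 and by 1.65 and 1.35. The dimmest, 1421239_at, ranged from 3.32 to 6.40 over the arrays and passed the threshold only in knockout retinas at 2500 lux (log2 change 1.57, limma adjusted p = 0.021). Its call was lost in several alternatives, among them with no filter (adjusted p = 0.079).

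Lifr, the chain that binds LIF itself, lay within a narrow band on every array by its leading probe set. The leading probe set 1454984_at read 10.80 and 10.73 on the wild-type arrays at 50 lux, 10.71, 10.67 and 10.70 at 2500 lux, and 10.72, 10.75 and 10.69 at 5000 lux. The knockout readings were 10.44, 10.60 and 10.75 at 50 lux, 10.70, 10.79 and 10.63 at 2500 lux, and 10.70 and 10.71 at 5000 lux. The order of the group means had wild type at 50 lux highest and knockout at 50 lux lowest, and each group overlapped its neighbour. The wild-type change at 2500 lux was -0.07 on the log2 scale with a 95% interval from -0.30 to 0.16, and in knockout retinas at the same dose it was 0.11, from -0.09 to 0.31, so a change of the size seen for gp130 lies outside both intervals. The dimmer probe sets 1425107_a_at, from 3.77 to 5.27, and 1450207_at, from 4.12 to 4.59, were not called in any light comparison either. In knockout retinas 1425107_a_at read higher by 0.77 at 2500 lux (limma adjusted p = 0.0687, called in 4 of 24 alternatives) and by 0.69 at 5000 lux (0.154). In wild type its changes were 0.35 and -0.15.

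Cntfr, the chain that binds CNTF, was dim. Its tested probe set 1419429_at read 5.0 and 4.77 on the wild-type arrays at 50 lux, 4.27, 4.70 and 4.68 at 2500 lux, and 4.34, 3.99 and 3.06 at 5000 lux. In knockout retinas it read 5.77, 5.13 and 5.30 at 50 lux, 4.0, 4.99 and 4.64 at 2500 lux, and 4.64 and 2.98 at 5000 lux. All 5 arrays at 50 lux lay at 4.77 or above, and only 1 array at a higher dose did, knockout array 2 at 2500 lux. The change was -1.59 on the log2 scale in knockout retinas at 5000 lux (SE 0.45, 3.01-fold lower, limma adjusted p = 0.0385), and it was -0.33, -1.09 and -0.86 in wild type at 2500 and 5000 lux and in knockout at 2500 lux, not past the threshold. The call was lost in 9 of 26 alternatives, and without knockout array 2 at 5000 lux, one of the arrays of high lens signal, the change was -0.76 (adjusted p = 0.419). The probe set 1431663_a_at stayed between 2.21 and 2.87.

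Jak1, a kinase bound to these receptor chains, gave different readings from its 3 probe sets. The leading one, 1433805_at, lay between 9.34 and 9.78 at 50 lux and between 9.07 and 9.55 at the higher doses, and its log2 changes of -0.09 and -0.26 in wild-type and -0.29 and -0.40 in knockout retinas did not pass the threshold. The next, 1433803_at, read 8.75, 8.91 and 8.84 on the knockout arrays at 50 lux, 8.25, 8.11 and 8.04 at 2500 lux, and 8.42 and 8.22 at 5000 lux, with no overlap between 50 lux and the higher doses. It fell in knockout retinas by 0.70 on the log2 scale at 2500 lux (SE 0.13, limma adjusted p = 0.0018) and by 0.51 at 5000 lux (adjusted p = 0.0357; 0.264 without knockout array 2 at 5000 lux). In wild-type retinas it read 8.65 and 8.44 at 50 lux, 8.43, 8.06 and 7.94 at 2500 lux, and 8.55, 8.55 and 8.43 at 5000 lux, and its changes of -0.41 and -0.04 did not pass. The dimmest, 1433804_at, was called higher in knockout retinas at 2500 lux (log2 change 1.02, adjusted p = 0.0498), with overlapping groups and a call lost under most alternatives. Its change in knockout retinas at 5000 lux was 0.58, and in wild type 0.06 and -0.11 in dose order, none past the threshold. In knockout retinas the 3 probe sets of Jak1 thus did not share a direction, and the dimmest was the one that read higher after light.

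Jak2, another kinase of these receptors, was level. The leading probe set 1421066_at ranged from 7.96 to 8.37 over the 5 arrays at 50 lux and from 8.08 to 8.43 over the 11 arrays at the higher doses. Its log2 changes were 0.13 and 0.01 in wild-type and 0.13 and 0.00 in knockout retinas, and the 95% interval in wild type at 2500 lux ran from -0.13 to 0.40. The probe set 1421065_at, between 6.56 and 7.30, was not called in any light comparison.

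**Figure D1:**
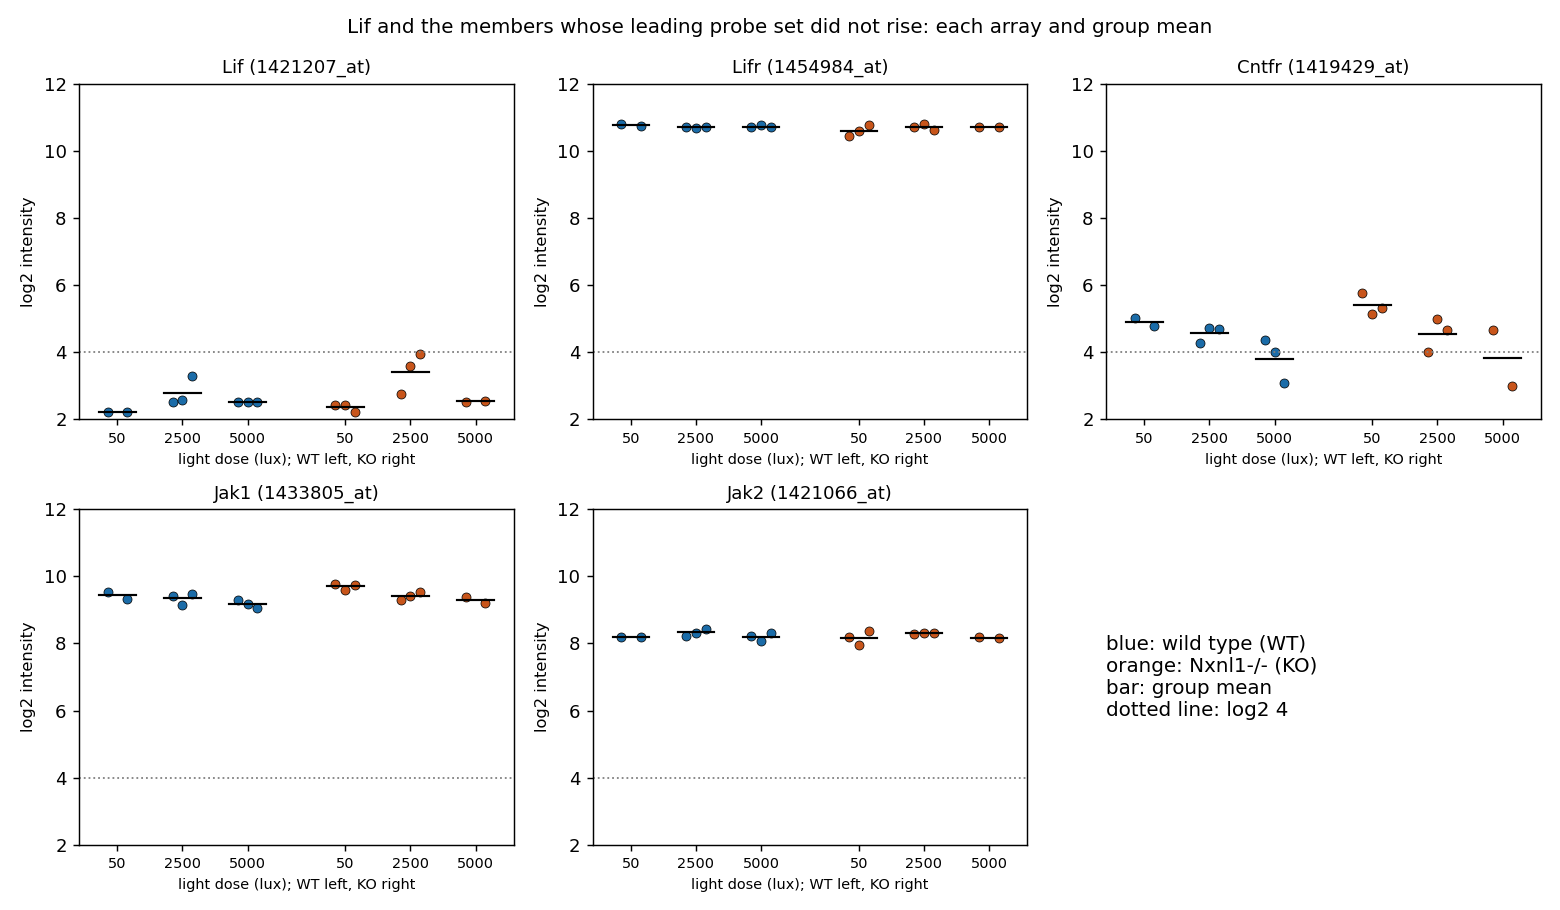
Log2 intensity on each of the 16 arrays for Lif (probe set 1421207_at) and for the leading probe sets of Lifr, Cntfr, Jak1 and Jak2, by light dose in lux, with wild type in blue and knockout in orange; bars are group means of 2 or 3 arrays and the dotted line is log2 4. Every Lif reading lies under the line, Lifr stays between 10.44 and 10.80, and the lowest Cntfr reading is 2.98.

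Stat3, the transcription factor at which the receptors converge, rose in all 4 light comparisons. Its leading probe set 1426587_a_at read 8.61 and 8.69 on the wild-type arrays at 50 lux, 10.78, 11.02 and 11.36 at 2500 lux, and 11.11, 11.01 and 11.06 at 5000 lux. Knockout arrays read 9.08, 9.35 and 9.62 at 50 lux, 11.29, 11.37 and 11.53 at 2500 lux, and 10.86 and 11.29 at 5000 lux. The 5 arrays at 50 lux all lay below the 11 arrays at the higher doses, by more than the spread within any group. The wild-type change was 2.40 on the log2 scale at 2500 lux (SE 0.19, 5.28-fold, limma adjusted p = 3.1e-06) and 2.41 at 5000 lux (5.31-fold, adjusted p = 2.7e-06). The knockout change was 2.05 at 2500 lux (SE 0.17, 4.13-fold, adjusted p = 3.1e-06) and 1.73 at 5000 lux (3.31-fold, adjusted p = 0.00012; 0.0558 with only the arrays of those groups in the fit).

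Both further tested Stat3 probe sets rose too. The probe set 1460700_at read 7.63 and 7.37 on the wild-type arrays at 50 lux and 8.18, 8.40 and 8.37 on the knockout ones, and between 9.66 and 10.44 on all arrays at the higher doses. Its rise was 5.36-fold and 7.08-fold in wild-type and 3.56-fold and 3.30-fold in knockout retinas. The probe set 1459961_a_at ranged from 6.10 to 7.09 at 50 lux and from 8.36 to 9.91 at the higher doses. Another, 1424272_at, stayed between 2.27 and 2.55 and was not tested.

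Socs3, the feedback inhibitor that STAT3 induces, had the largest light response among the members. Its leading probe set 1455899_x_at read 4.77 and 4.15 on the wild-type arrays at 50 lux, 9.48, 9.86 and 10.91 at 2500 lux, and 9.86, 10.26 and 10.54 at 5000 lux. The 8 knockout readings were 5.38, 5.12 and 5.54 at 50 lux, 10.78, 11.09 and 11.16 at 2500 lux, and 9.64 and 10.15 at 5000 lux. The gap between 50 lux and the higher doses was thus wider than any spread within a group, and knockout retinas at 2500 lux held the highest readings. The wild-type change was 5.62 on the log2 scale at 2500 lux (SE 0.35, 49.2-fold, limma adjusted p = 3.6e-07) and 5.76 at 5000 lux (54.1-fold, adjusted p = 3.1e-07). The knockout change was 5.67 at 2500 lux (SE 0.31, 50.8-fold, adjusted p = 1.8e-07) and 4.55 at 5000 lux (23.4-fold, adjusted p = 8.0e-06).

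The leading Socs3 probe set carries the suffix for probes that may also match other transcripts, so the other 2 probe sets are given beside it. The probe set 1456212_x_at, of the same kind, rose 29.5-fold and 31.9-fold in wild-type and 39.6-fold and 18.9-fold in knockout retinas. The probe set 1416576_at, which has no such suffix, lay between 2.43 and 3.02 at 50 lux and between 5.18 and 7.77 at the higher doses. It passed the filter through the bright arrays alone and so had to be higher there; its rise was at least 4.49-fold and at least 6.08-fold in wild-type and at least 10.4-fold and at least 4.74-fold in knockout retinas.

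**Figure D2:**
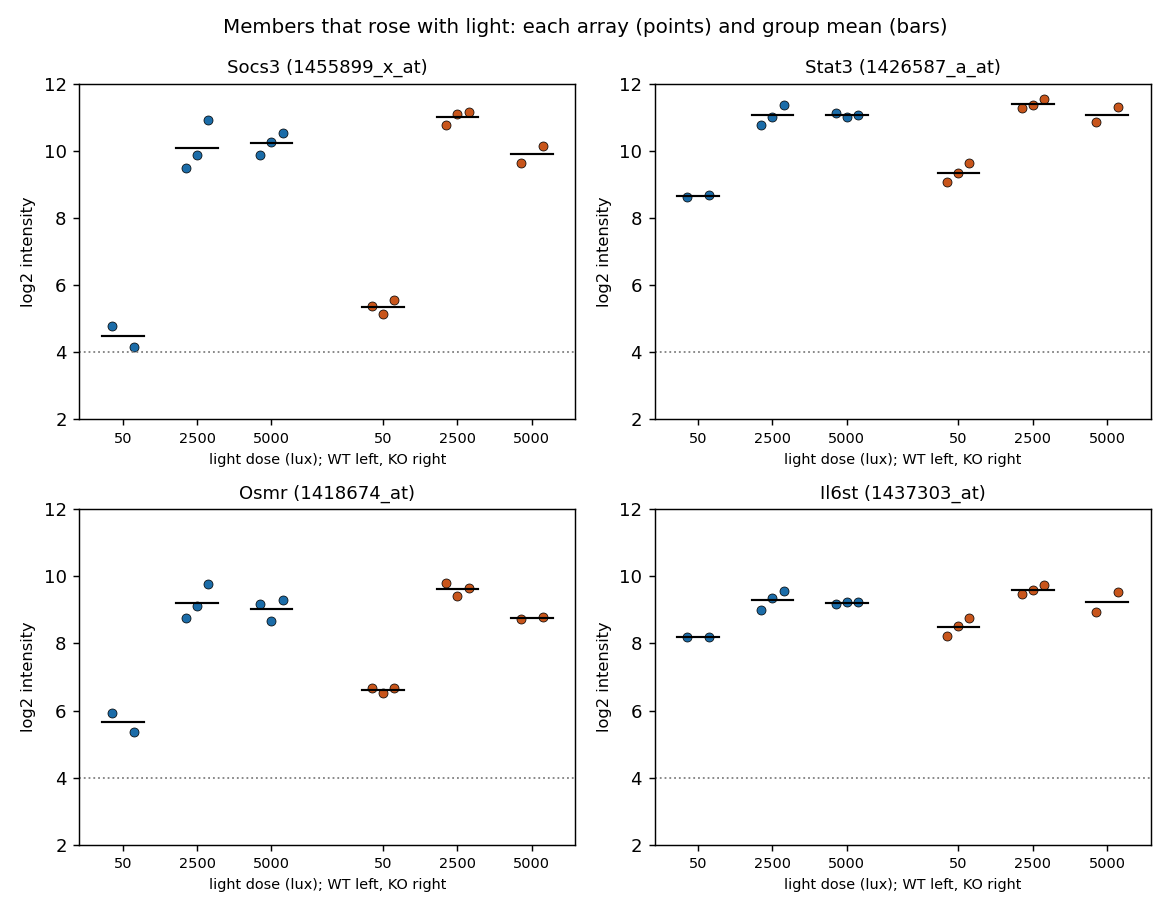
Log2 intensity on each of the 16 arrays for the leading probe sets of Socs3, Stat3, Osmr and Il6st, by light dose in lux, with wild type in blue and knockout in orange; bars are group means of 2 or 3 arrays and the dotted line is log2 4. In each panel the arrays at 50 lux lie below those of the same genotype at the higher doses. At 50 lux the knockout arrays lie above the wild-type arrays, by differences that did not pass the threshold.

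Counted over probe sets, 11 of the 21 tested rose and none fell in wild-type retinas at 2500 lux, against a background of 6.72% rising and 5.04% falling among all 23320 probe sets tested. At 5000 lux 11 rose and none fell in wild-type retinas, where the background was 5.97% and 4.52%. In knockout retinas 13 rose and 1 fell at 2500 lux (background 8.6% and 10.7%), and 11 rose and 2 fell at 5000 lux (background 5.54% and 5.88%). The 2 probe sets that passed through the bright arrays alone had to be higher there; of the 19 measured on at least 1 array at 50 lux, 9, 9, 11 and 9 rose in the same order. By gene, 4 of 8 rose in each comparison, namely Osmr, Il6st, Stat3 and Socs3. The median log2 change of the 8 genes was 0.62, 0.52, 0.62 and 0.42, against 0.04, 0.00, -0.08 and -0.09 over all 10916 genes tested. Light comparisons within a genotype share their arrays at 50 lux and are not independent of each other. Probe sets of a gene share its transcript and are not independent either. The members were chosen with earlier results of these data known, so their excess over the background describes them and is not a test.

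**Figure D3:**
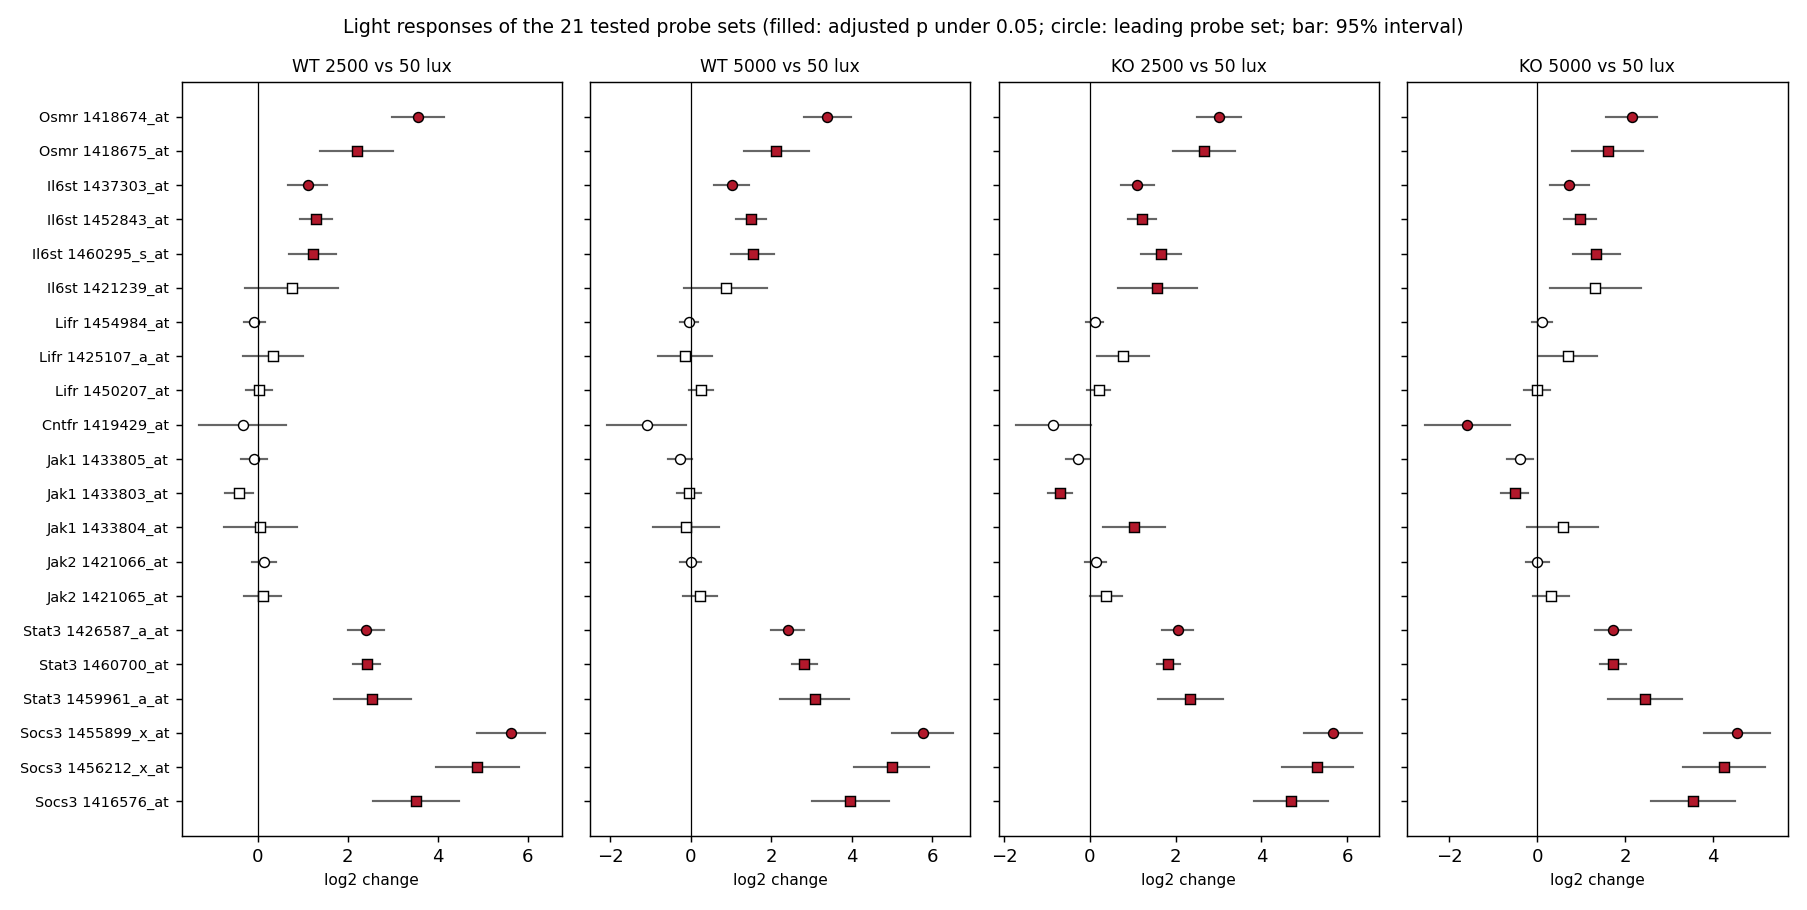
Log2 change against 50 lux, with its 95% interval, for each of the 21 tested probe sets in the 4 light comparisons; circles mark leading probe sets and filled symbols an adjusted p under 0.05. Socs3, Osmr and Stat3 lie farthest to the right, from 5.76 down to 1.73 for their leading probe sets, and the leading probe sets of Lifr and Jak2 lie near 0.

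Levels in whole retina also moved for markers of several cell types. Of 7 Müller glia markers 2, 2, 1 and 1 rose and 2 fell each time, in wild type and then knockout at 2500 and 5000 lux. Backgrounds in that order were 6.72%, 5.97%, 8.6% and 5.54% rising and 5.04%, 4.52%, 10.7% and 5.88% falling. Vim, an intermediate filament gene, rose by 1.97 and 1.99 on the log2 scale in wild-type and by 2.15 and 1.74 in knockout retinas. Glul and Rlbp1, genes of glutamate and retinoid handling, fell in all 4 comparisons. The summed Müller signal lay between 14.25 and 14.56 on all arrays. In knockout retinas it was 14.25 to 14.29 at 50 lux, 14.47 to 14.56 at 2500 lux and 14.33 to 14.47 at 5000 lux. In wild type it was 14.37 to 14.40, 14.36 to 14.48 and 14.37 to 14.51 in dose order. The astrocyte marker Aldh1l1 rose by 1.98, 2.37, 2.32 and 1.97 in the same order. Of 8 microglia and macrophage markers 5 were tested. The lysosomal gene Cd68, which passed the filter through the bright arrays alone, rose by lower bounds of 2.31-fold and 2.97-fold in wild-type and 4.43-fold and 2.78-fold in knockout retinas. The lysozyme gene Lyz2 rose at least 2.05-fold and at least 2.99-fold in wild-type and 5.60-fold and 2.21-fold in knockout retinas. Csf1r, a receptor of these cells, fell in knockout retinas at 2500 lux (log2 change -1.11, limma adjusted p = 0.030) and C1qa, a complement gene, rose in wild type at 2500 lux (1.29, adjusted p = 0.032), while Cx3cr1 did not pass in any light comparison. The log2 of their summed intensity was 7.68 on both wild-type arrays at 50 lux, 8.11 to 8.42 on the knockout arrays at 50 lux and 7.63 to 8.69 at the higher doses. The endothelial summed signal of 4 markers ranged from 8.70 to 9.37 at 50 lux and from 9.55 to 10.06 at the higher doses, and Kdr, a receptor of vascular endothelial growth factor, rose in all 4 comparisons, by 1.21, 0.89, 0.63 and 0.67 on the log2 scale. Tek, the other endothelial marker tested, did not pass (0.33, 0.05, -0.48 and -0.61) and had group means under log2 4. Of 4 retinal ganglion cell markers 0, 1, 1 and 3 fell and none rose, against a background of 5.04%, 4.52%, 10.7% and 5.88% falling. Rbpms fell by 1.08 and Thy1 by 1.60 in knockout retinas at 5000 lux. The summed ganglion cell signal was 10.63 to 11.55 at 50 lux and 9.29 to 10.65 at the higher doses. The summed signal of 7 pigment epithelium markers, 2 of them never above log2 4, was 13.20 to 13.67 in wild type at 50 lux. It was 12.40 to 13.21 there at 2500 lux and 11.57 to 12.19 at 5000 lux. In knockout retinas it was 12.55 to 13.52, 11.75 to 12.82 and 12.05 to 12.13 in dose order. The part of these cell types in the rise of Osmr, Il6st, Stat3 and Socs3 was not tested. Without the wild-type array of high lens signal at 5000 lux, the rise in wild-type retinas at that dose was 53.4-fold for Socs3, 5.41-fold for Stat3, 12.0-fold for Osmr and 2.02-fold for Il6st, each still past the threshold.

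From 2500 to 5000 lux no member passed the threshold in either genotype. In wild-type retinas the background of calls was 0% (limma), with 8.22% of all probe sets (1917) and 2 of the 21 at an unadjusted p under 0.05, and the leading probe sets differed by 0.14 for Socs3, 0.01 for Stat3, -0.17 for Osmr and -0.09 for Il6st on the log2 scale. In knockout retinas the background was 0.0772%, with 5 of the 21 and 12.7% of all probe sets at an unadjusted p under 0.05. There the differences were -1.12 for Socs3 (limma adjusted p = 0.235), -0.85 for Osmr (0.237), -0.32 for Stat3 and -0.37 for Il6st. For Socs3 and Osmr the 2 knockout arrays at 5000 lux lay below all 3 at 2500 lux, but neither difference of means passed the threshold. The separation itself was not tested, and the share of all probe sets that separate in this way was not counted.

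Over the 6 groups the order of the means was alike at its ends for the 4 rising genes: knockout retinas at 2500 lux were highest and wild-type retinas at 50 lux lowest. Socs3 went from 11.01 ± 0.21 (SD, n = 3) to 4.46 ± 0.43 (n = 2), Stat3 from 11.40 to 8.65, Osmr from 9.62 to 5.65 and Il6st from 9.61 to 8.19. Neighbouring groups at the higher doses overlapped in range, apart from Socs3 in knockout retinas at 2500 lux, which lay above the next group in the order, wild type at 5000 lux. On these leading probe sets the knockout group at 50 lux lay below every group at the higher doses and above the wild-type group at 50 lux. The genotype differences at 50 lux did not pass the threshold on them.

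The genotype comparison at 50 lux asked whether loss of Nxnl1 alone altered these genes. All leading probe sets of the 4 rising genes read higher in knockout retinas with no overlap, by 0.70 on the log2 scale for Stat3 (SE 0.19, limma adjusted p = 0.146), 0.97 for Osmr (SE 0.27, adjusted p = 0.153), 0.88 for Socs3 (SE 0.35, adjusted p = 0.28) and 0.31 for Il6st (SE 0.20, adjusted p = 0.471), and none passed the threshold. With array weights Stat3 did (0.73, adjusted p = 0.0327). Of the 21 probe sets 1 was called, Stat3 1460700_at, which was higher by 0.81 (SE 0.14, 1.76-fold, adjusted p = 0.0373), against a background of 0.326% of all probe sets; 5 of the 21 and 14.6% of all probe sets had an unadjusted p under 0.05. That call was lost in 9 of 25 alternatives, with a difference of 0.94 (adjusted p = 0.0712) without wild-type array 1 at 50 lux and 0.69 (0.444) without array 2. The other Socs3 probe sets differed by 0.38 and 0.05, those of Il6st by -0.44, 0.39 and -0.01, and the dimmer tested one of Osmr by 0.07. Stat3 1459961_a_at differed by 0.71, and none of these was called. The share of all probe sets that separate without overlap on 3 against 2 arrays was not counted. In this comparison the summed lens signal also differed without overlap, 10.48 to 12.42 in knockout against 5.05 to 6.98 in wild-type retinas, as did the summed microglia and macrophage signal, 8.11 to 8.42 against 7.68, and the endothelial one, 8.99 to 9.37 against 8.70 to 8.84. The myelin signal was 7.27 to 7.78 against 6.93 to 7.26 and the Müller signal 14.25 to 14.29 against 14.37 to 14.40, also without overlap. No tested lens, microglia and macrophage, endothelial, myelin or Müller marker was called in this comparison. The part of these in the differences was not tested.

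At 2500 lux the leading probe sets read higher in knockout retinas by 0.93 for Socs3 (limma adjusted p = 0.642), 0.34 for Stat3, 0.41 for Osmr and 0.30 for Il6st on the log2 scale, with overlapping groups. None of the 21 probe sets passed the threshold (background 0.0943%), and 2 of them had an unadjusted p under 0.05, against 5.59% of all probe sets. Without wild-type array 3 at 2500 lux, the highest of its group for Socs3, the Socs3 difference was 1.34 with an adjusted p of 0.0454. At 5000 lux the differences were -0.32 for Socs3, 0.02 for Stat3, -0.27 for Osmr and 0.02 for Il6st, all with an adjusted p of 1; none of the 21 had an unadjusted p under 0.05, against 2.32% of all probe sets, and the background of calls was 0.00429%. For these 4 leading probe sets the difference between genotypes was smaller in size at 5000 lux than at 50 or 2500 lux. The interaction that follows tests the genotype difference at 5000 lux against that at 50 lux. A change of that difference from 2500 to 5000 lux was not tested.

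The interaction compares the light response of knockout with that of wild-type retinas. At 2500 lux it was 0.05 on the log2 scale for Socs3 (95% interval -0.96 to 1.06), -0.56 for Osmr, -0.35 for Stat3 and -0.01 for Il6st. No member passed (limma background 0.0472%), and 1 of 21 had an unadjusted p under 0.05, against 9.13% of all probe sets. At 5000 lux the knockout response was smaller in each of the 4 genes: -1.21 for Socs3 (95% interval -2.27 to -0.14, adjusted p = 0.591), -1.24 for Osmr (-2.06 to -0.43, adjusted p = 0.464), -0.68 for Stat3 (-1.25 to -0.11, adjusted p = 0.579) and -0.29 for Il6st (-0.90 to 0.32). Of the 21 probe sets 6 had an unadjusted p under 0.05, against 8.18% of all probe sets, and none passed after adjustment, with a background of calls of 0.0257%. Nearest to it was Stat3 1460700_at, at -1.10 (95% interval -1.53 to -0.67, limma adjusted p = 0.128). A difference of light response between genotypes was therefore not detectable for the members with these arrays.

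**Figure D4:**
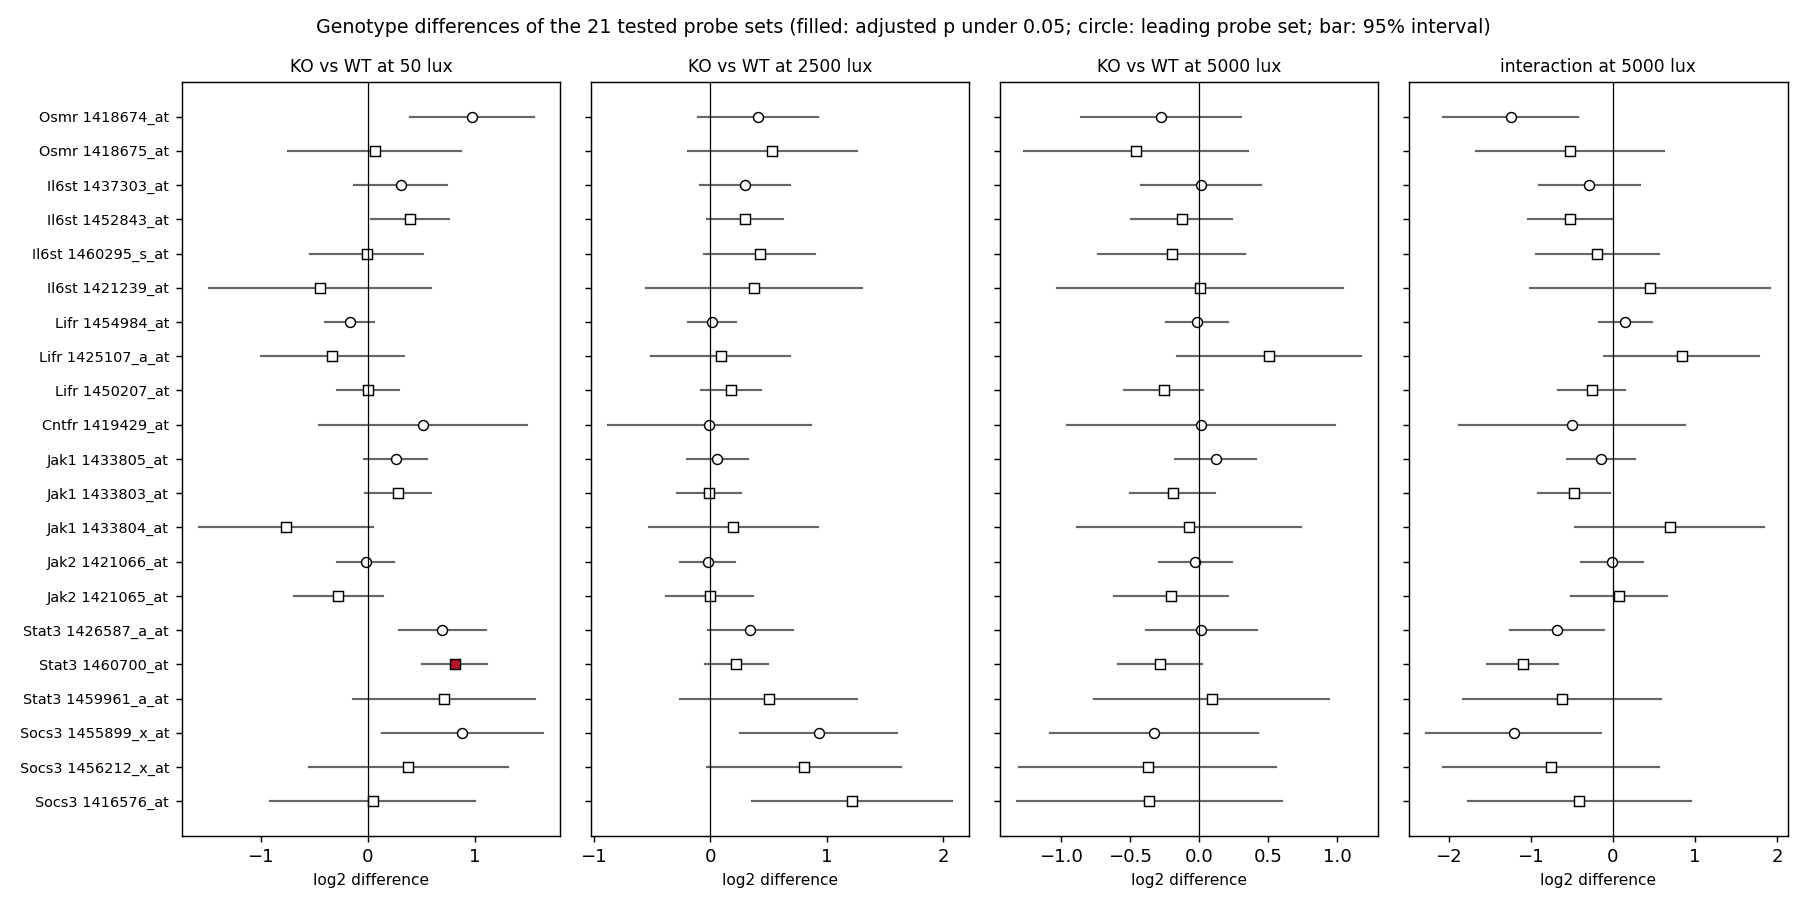
Knockout minus wild-type difference in log2 intensity at 50, 2500 and 5000 lux, and the interaction at 5000 lux, with 95% intervals, for the 21 tested probe sets; filled symbols have an adjusted p under 0.05. The single filled symbol is Stat3 1460700_at at 50 lux, at 0.81.

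Other genes of the route were read from 5 lists, which were chosen with earlier results of these data known. Of the further ligands and receptor chains 8 had a probe set of their own and 1 was measured, Clcf1, a ligand of the CNTF receptor. It rose in wild-type retinas by at least 2.95-fold at 2500 lux (limma adjusted p = 0.0137) and at least 2.31-fold at 5000 lux (0.0456), and in knockout retinas 6.17-fold at 2500 lux (0.00021); at 5000 lux the change was 2.29-fold (0.0715). The wild-type calls were lost in 5 of 25 alternatives at 2500 lux and in 13 of 25 at 5000 lux, among them with no filter (adjusted p = 0.0569 and 0.147), while the log2 change stayed between 1.48 and 2.04 and between 1.13 and 1.56. Il6, Osm, Il11, Ctf1 and the receptor chains Il6ra, Il27ra and Il31ra were not above the level.

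Of the further kinases and STATs 3 were measured, and 1 rose in every light comparison. The background rising was 6.72% and 5.97% in wild type at 2500 and 5000 lux and 8.6% and 5.54% in knockout. That was Stat2, which relays type I interferon signals, up 2.42-fold and 3.10-fold in wild-type and 5.13-fold and 3.00-fold in knockout retinas (limma adjusted p = 0.0058, 0.0011, 1.3e-05 and 0.0023). The call in wild type at 2500 lux had an adjusted p of 0.0633 without wild-type array 1 at 50 lux. With only the arrays of those groups in the fit, Stat2 in knockout retinas at 5000 lux had a limma adjusted p of 0.121. Tyk2 and Stat5b did not pass in any light comparison. Jak3, Stat4, Stat5a and Stat6 were not above the level.

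Of 17 regulators 15 were measured; 4, 5, 5 and 3 rose and 1, 1, 2 and 2 fell in wild type at 2500 and 5000 lux and knockout at 2500 and 5000 lux, against backgrounds of 6.72%, 5.97%, 8.6% and 5.54% rising and 5.04%, 4.52%, 10.7% and 5.88% falling, so that the falls lie near the background. Socs2, of the same inhibitor family as Socs3, rose by 1.02, 1.26, 1.34 and 1.09 on the log2 scale. Cish, another member of that family, rose by 1.42, 1.24 and 1.34 in the first 3 of these, and its change of 0.72 in knockout at 5000 lux did not pass (limma adjusted p = 0.098). The phosphatase gene Ptpn2 rose by 0.86, 0.83, 0.83 and 0.78, and Gab1, an adaptor that links gp130 to other kinase routes, by 1.26, 1.23, 0.93 and 0.63. Pias3, whose product binds and inhibits STAT3, fell by 1.06, 1.11, 1.39 and 0.75. The median log2 change of the list was 0.08, 0.02, 0.04 and -0.08. With only the arrays of those groups in the fit no regulator rose in knockout retinas at 5000 lux.

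Of 18 known STAT3 target genes 16 were measured; 10, 10, 11 and 10 rose in the same order and none fell, with a median log2 change of 1.44, 1.67, 2.26 and 1.30. Over all genes tested the median was 0.04, 0.00, -0.08 and -0.09, and the background rising was 6.72%, 5.97%, 8.6% and 5.54%. Because earlier results of these data were known when the list was chosen, its excess over the background is not independent support. Of the 16, 3 passed the filter through the bright arrays alone (Bcl3, Myc and Timp1); of the other 13, 8 rose in each comparison, with medians of 0.73, 1.12, 1.53 and 1.25. Lcn2, an iron-binding acute-phase gene, rose 47.8-fold and 42.1-fold in wild-type and 82.1-fold and 26.9-fold in knockout retinas. Cebpd, a transcription factor of the acute-phase response, rose 75.8-fold and 80.8-fold in wild-type and 18.3-fold and 14.7-fold in knockout retinas. Serpina3n, a protease inhibitor of reactive glia, rose at least 24.8-fold and at least 20.05-fold in wild-type and 22.2-fold and 10.5-fold in knockout retinas. Bcl3, a partner of NF-kappaB, rose by lower bounds of 12.1-fold and 14.2-fold in wild-type and 16.8-fold and 10.2-fold in knockout retinas, and Timp1, an inhibitor of matrix proteases, by lower bounds of 2.80-fold and 2.95-fold and of 7.01-fold and 2.92-fold. Junb, a subunit of AP-1, rose 10.3-fold, 11.9-fold, 12.7-fold and 10.4-fold. Icam1 and Il4ra were not above the level. With only the arrays of those groups in the fit, 7 of the list rose in knockout retinas at 5000 lux.

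Of these targets 2 were called in a genotype comparison. Cebpd lay between 7.58 and 8.02 in knockout retinas and between 5.02 and 5.88 in wild-type retinas at 50 lux, a difference of 2.36 on the log2 scale (SE 0.23, 5.12-fold, limma adjusted p = 0.00058; 0.351 with only those arrays in the fit). At the higher doses all its arrays lay between 11.39 and 12.09, so that the 2 genotypes started apart and read alike after light. Its interaction was -2.05 at 2500 lux (adjusted p = 0.0444) and -2.46 at 5000 lux (adjusted p = 0.022), and these calls were lost in 15 and 11 of 25 alternatives, in which the interaction stayed between -2.48 and -1.62 and between -2.89 and -2.02; without wild-type array 2 at 50 lux the adjusted p was 0.243 and 0.0872. Myc was higher in knockout than in wild-type retinas at 2500 lux by at least 2.07-fold (adjusted p = 0.0154) and lower at 5000 than at 2500 lux in knockout retinas (adjusted p = 0.0156); each call was lost in 7 of 25 alternatives. With values below log2 4 raised to that level the differences were 1.05 (adjusted p = 0.0682) and -1.05 (0.0913), with no filter the adjusted p was 0.0693 and 0.054, and with only the arrays compared 0.549 and 0.181. The lens, microglia, endothelial, myelin and Müller signals given for 50 lux moved with the Cebpd difference as well, and their part in it was not tested.

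The 3 genes placed downstream of LIF in the retina rose in all 4 light comparisons, against backgrounds of 6.72%, 5.97%, 8.6% and 5.54% rising. Of them 2 were measured at 50 lux, Edn2 and Gfap. Edn2, an endothelin made by stressed photoreceptors, read 3.57 to 3.89 in wild type and 6.83 to 8.36 in knockout retinas at 50 lux, and 9.90 to 10.60 on all arrays at the higher doses. It rose at least 71.2-fold and at least 82.7-fold in wild-type and 6.90-fold and 6.19-fold in knockout retinas. At 50 lux it was at least 11.4-fold higher in knockout retinas (limma adjusted p = 0.00020; 0.351 with only those arrays in the fit), on arrays that the lens, microglia, endothelial, myelin and Müller signals separate in the same way; their part in it was not tested. Its interaction was -3.64 at 2500 lux (adjusted p = 0.00995; lost in 4 of 25 alternatives, with 0.0861 without wild-type array 1 at 50 lux) and -4.01 at 5000 lux (adjusted p = 0.00599; 0.144 with only the arrays compared). Because the wild-type arrays at 50 lux lay under log2 4, these values rest on readings below measurement, and with values raised to log2 4 they were -3.37 (adjusted p = 0.012) and -3.74 (adjusted p = 0.00946). Gfap, the intermediate filament of reactive glia, rose 7.24-fold and 7.01-fold in wild-type and 3.60-fold and 3.96-fold in knockout retinas, and its difference of 1.11 between genotypes at 50 lux did not pass (adjusted p = 0.20). Fgf2, a growth factor that protects photoreceptors, passed the filter through the bright arrays alone and rose at least 1.97-fold and at least 2.82-fold in wild-type and at least 2.00-fold and at least 1.81-fold in knockout retinas. With values below log2 4 raised to that level its adjusted p was 0.0594 in wild type at 2500 lux and 0.0895 in knockout at 5000 lux.

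**Figure D5:**
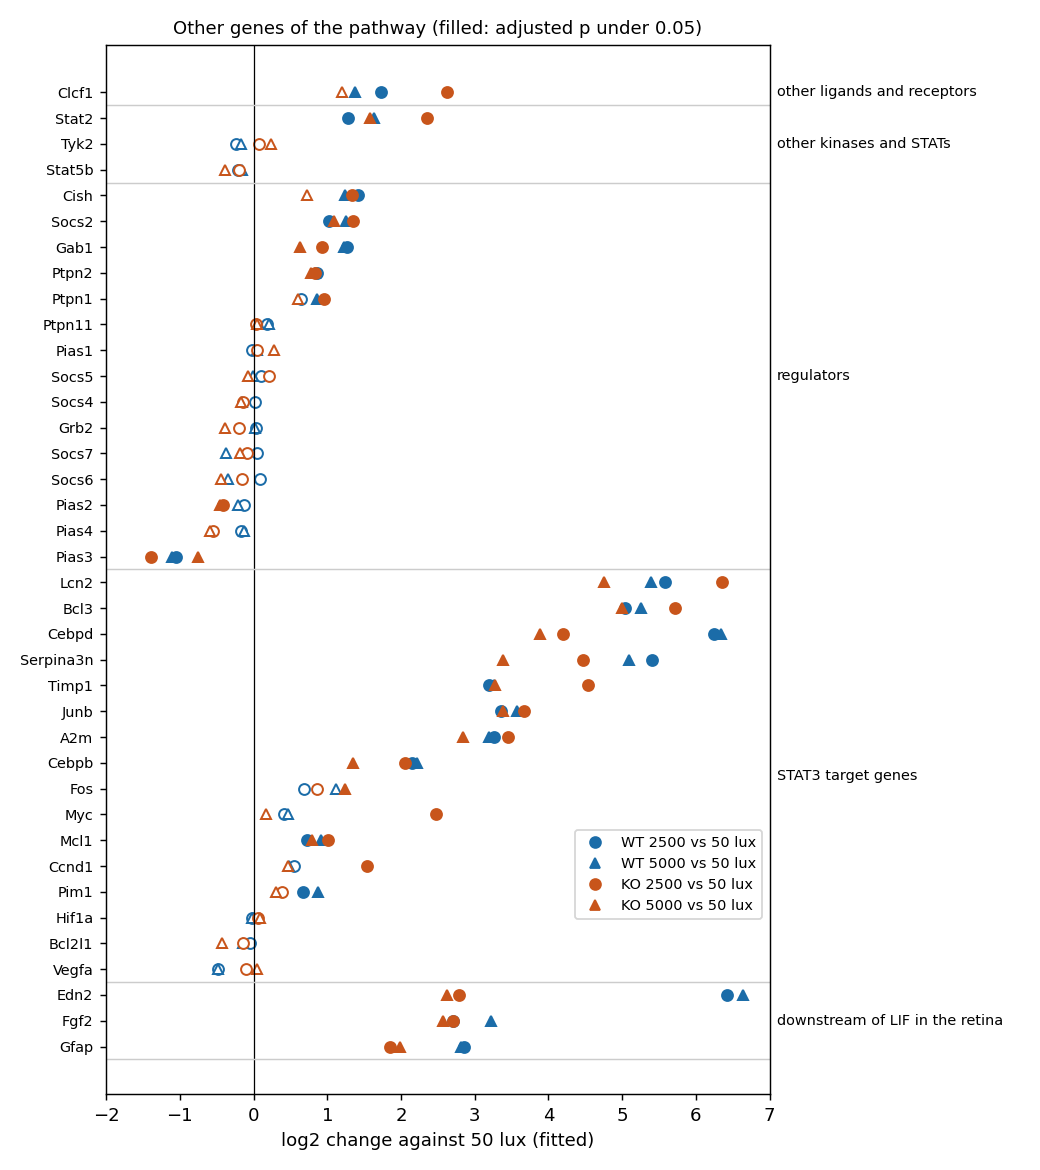
Log2 change against 50 lux for the measured genes of the 5 lists, in wild-type (blue) and knockout (orange) retinas, with circles for 2500 lux, triangles for 5000 lux and filled symbols for an adjusted p under 0.05. The STAT3 targets Lcn2, Bcl3, Cebpd and Serpina3n and the endothelin gene Edn2 lie farthest to the right, Pias3 lies to the left at -0.75 to -1.39, and Cebpd and Edn2 show the widest space between blue and orange.

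Likeness of pattern was taken as the root mean square difference of log2 values, each centred on its own mean, over the 16 arrays and 1 leading probe set for each of 10916 genes. For Socs3, whose own root mean square deviation was 2.54, the 5 nearest genes were Lcn2 (0.418), Bcl3 (0.423), Lgals3 (0.439), S100a6 (0.449) and Cebpd (0.556), of which 3 stood in the STAT3 target list. That list was chosen with earlier results of these data known. For Osmr (own deviation 1.44) they were Bst2 (0.220), Pcolce (0.226), Chl1 (0.250), Axl (0.268) and A2m (0.278). For Stat3 (own deviation 1.01) they were Klhl29 (0.157), Myo10 (0.182), R3hcc1l (0.185), Tirap (0.199) and Sec22c (0.228). All points share the arrays and the step between 50 lux and the higher doses, so these distances describe the pattern and carry no test.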

How the data were processed

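Mouse retinal RNA was measured on 16 arrays in 6 groups of genotype and light dose. The intensity values were deposited by the authors, linear in scale and 1 for each probe set of an array; GCRMA made them, per the submitters' processing notes, in a version not given in the sources used here. GCRMA corrects background, normalizes and summarises probes, so dim probe sets pile up at one lowest value and folds of dim genes are bounds. Symbols came from the platform annotation: 34945 probe sets had 1 symbol, 932 several and 9160 none.

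All values were put on the log2 scale. Probe sets above log2 4 on at least 2 arrays (23320) entered a limma 3.58.1 fit (R 4.3.3) with a mean for each group on all 16 arrays and empirical Bayes moderation without trend (10 residual and 3.18 prior degrees of freedom). P-values were adjusted by Benjamini-Hochberg over those probe sets, and 0.05 was the threshold. Each gene was led by its brightest single-symbol probe set (mean of all arrays). A group that lay wholly at or under log2 4 was set to log2 4 and its fold written as "at least", and folds were left out where both means lay under that level. The model was checked on simulated data beforehand.

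Named genes were all members, the genes of the 5 lists called in at least 3 light comparisons (at most the 6 with the largest mean change in each list) or in a genotype comparison, the 5 genes of nearest pattern, and Nxnl1. Members and lists were chosen with earlier results of these data known. Alternatives changed the filter, the scaling, the floor, the variance trend, array weights, the arrays fitted, the probe set summary, a block on replicate number, and left out each array in turn. The number of arrays limits the precision.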

Additional observations from a re-analysis of the deposited data

Results flagged for a closer look

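No member of the route had a light response that differed between genotypes past the threshold. In the lists of related genes 2 did, by the interaction term of the limma fit over all arrays. For Edn2 the interaction, knockout minus wild-type light response on the log2 scale, was -3.64 at 2500 lux (adjusted p = 0.00995) and -4.01 at 5000 lux (adjusted p = 0.00599). Edn2 was not above log2 4 in wild type at 50 lux, and with values raised to that level the interaction was -3.37 and -3.74. For Cebpd the interaction was -2.05 at 2500 lux (adjusted p = 0.0444) and -2.46 at 5000 lux (adjusted p = 0.022), calls that were lost in 15 and 11 of 25 alternatives. Both genes read higher in knockout than in wild-type retinas at 50 lux, so the arrays at 50 lux enter each of these values.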

How the results depend on the processing

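Under 26 other settings, 16 of them leaving out 1 array, 35 of the 50 called member results kept their call throughout and none changed direction; 27 of the 32 light results of Socs3, Stat3 and Osmr did so. Of 181 uncalled results 9 passed in some setting. Of the 8 member genes, 5 were called in knockout retinas at 5000 against 50 lux; there were 3 with no filter, 3 with array weights and 2 with only the arrays compared, and between 3 and 5 with an array left out (3 without knockout array 1 at 50 lux or 2 at 5000 lux). The genotype comparison at 50 lux had 0 member genes and 1 with array weights; at 2500 lux it had 0, and from 0 to 1 with an array left out (1 without wild-type array 3 at 2500 lux). In wild type at 5000 lux 4 were called, and 3 to 4 with an array left out (3 without array 1 at 50 lux). With a replicate block, a fit with the replicate number as a factor, 4, 4, 4 and 5 member genes were called in wild type at 2500 and 5000 lux and in knockout at 2500 and 5000 lux, the same as without it. Same-numbered samples correlated from -0.24 to 0.69 over 36 pairs (median 0.17, 21 above 0.1) and samples of other numbers from -0.69 to 0.48 over 70 pairs (median -0.11, 13 above 0.1). The labels do not say that a number marks a shared batch and not every same-numbered pair lay above 0.1, so the samples were not treated as paired; the higher median is a hint from the data, not from the design. Over all probe sets the counts moved further: in knockout retinas at 5000 lux 2663 were called, 1526 with no filter, 730 with array weights, 182 with only the arrays compared, 4613 with the block and 575 to 4411 with an array left out. In wild type at 2500 lux 2744 were called and 1275 with only the arrays compared (1127 to 3001 with an array left out); at 5000 lux 2447 were called and 5512 with array weights (1025 to 2679). In knockout at 2500 lux 4501 were called and 6791 with array weights (2918 to 4751). The genotype comparison at 50 lux had 76 calls, 141 with no filter, 248 with array weights and 1 with only the arrays compared (9 to 363). At 2500 lux it had 22, and 9 with the stricter filter, 39 with array weights and 4 with only the arrays compared (2 to 86). At 5000 lux it had 1, and 3 with no filter and 0 with only the arrays compared (1 to 9). From 2500 to 5000 lux wild type had 0 calls (0 to 30) and knockout 18, with 32 under median centring, 1 with array weights and 0 with only the arrays compared (0 to 103). The interaction had 11 calls at 2500 lux, and 47 with no filter, 22 with array weights, 27 with the block, 7 with a variance trend and 6 with only the arrays compared (3 to 15); at 5000 lux it had 6, 39 with no filter and 1 with only the arrays compared (4 to 14). The cause of these shifts was not tested. With 2 or 3 arrays a group, the precision is limited by their number, and readings near log2 4 give bounds.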
